A study of Mus musculus with 6 samples.

Results

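The 58 genes described here encode the ligands, receptors, secreted antagonists and agonists of the Wnt pathway, together with intracellular components and commonly used transcriptional targets of Wnt signaling in the mouse. They were picked by symbol, as members of named gene families and as genes of known function in the pathway. The choice was made with earlier results of these data known. Each of the 58 was found as 1 of the 55487 gene identifiers in the count table. They comprised 19 Wnt ligands, 12 receptors (the 10 Frizzled genes with Lrp5 and Lrp6), 11 secreted antagonists, 9 genes of the R-spondin axis and 7 intracellular and target genes. Their mRNA was measured by bulk RNA-sequencing of poly(A) RNA in 6 primary cultures from C57BL/6 mice that are labelled as skin endothelial cells (ECs). Digested skin of 4 to 6 mice aged 2 to 3 months was incubated with magnetic beads against CD31, an endothelial surface protein, and the isolated cells were then kept for 48 hours in medium with normal glucose (5 mmol/L, 3 cultures) or high glucose (20 mmol/L, 3 cultures). The comparison asks how a glucose level that models hyperglycemia alters the mRNA of the cultured cells. A figure legend of the study counts the replicates of these data as mice, but the labels describe isolations from several mice and do not say whether the cultures of a group came from separate isolations, so the P values measure the spread between these samples, and how much of it is biological is not stated.

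Wnt proteins are lipid-modified secreted signals that bind a Frizzled receptor on the cell surface, and in the canonical branch a coreceptor, LRP5 or LRP6, joins the complex. The receptor complex then stabilizes β-catenin, which enters the nucleus and acts with TCF/LEF transcription factors, whereas noncanonical branches act on cell polarity and movement without β-catenin. SFRP proteins and WIF1 bind the ligands outside the cell, Dickkopf proteins bind the LRP coreceptors, and R-spondins act through LGR receptors to keep Frizzled receptors on the surface. In ECs the pathway is known for its part in vessel growth and in the barriers of brain and retinal vessels, and in skin for hair follicle cycling and dermal fibroblast biology.

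The identity of the cultures bears on every value below. Of 20 endothelial marker genes, 13 passed the count filter, and the summed level of the list was 85.2 to 89.3 CPM (counts scaled to a common library total, TMM-normalized) in normal glucose and 71.0 to 72.2 CPM in high glucose, with 3 markers called higher and 3 called lower. The 3 higher were Tek, Plvap and Erg. Tek had 151 to 180 counts in normal glucose and 243 to 302 in high glucose (log2 fold change of 0.66), and Plvap had a log2 fold change of 0.44. The 3 lower were Cdh5 (-1.03), Flt1 (-0.53) and Egfl7 (-0.23). Erg had 2 to 8 counts in normal glucose and 12 to 15 in high glucose. It passed the filter only through the high glucose libraries, which favored that call. Pecam1, which encodes CD31, had 12 to 19 counts in normal glucose and 9 to 18 counts in high glucose, Tie1 had at most 2 counts and Cldn5 and Robo4 at most 4 in any library, and Sox17 was at 0 in all 6, so that these 5 markers were at or near 0. Other endothelial markers were detected: Cdh5, which encodes VE-cadherin, had 231 to 242 counts in normal glucose and 91 to 130 in high glucose and fell (log2 fold change of -1.03), Kdr had 576 to 777 counts over all libraries, Plvap 586 to 833, Flt4 746 to 1061 and Egfl7 1113 to 1464. Flt1 made up most of the endothelial sum, with means of 55.3 CPM in normal glucose and 38.4 CPM in high glucose. All 18 fibroblast markers passed the filter, with a summed level of 45653 to 49074 CPM in normal glucose and 79186 to 84049 CPM in high glucose, and 12 of them were called higher and 4 lower. The collagen genes Col1a1, Col1a2 and Col3a1 made up most of this sum, with Col3a1 alone at means of 12421 CPM in normal glucose and 32515 CPM in high glucose. The 4 lower were Thy1, Twist2, S100a4 and Pdpn, and Fn1 and Prrx1 were not called. The lists for mural cells (1191 to 1276 CPM against 1079 to 1149 CPM, 4 of 10 markers lower and 2 higher), immune cells (8.59 to 9.76 against 5.81 to 6.60 CPM, 3 of 8 lower) and melanocytes with Schwann cells (14.9 to 16.1 against 12.3 to 13.1 CPM, 2 of 7 lower and 1 higher) had lower sums in high glucose, and Cd3e and Tyrp1 among their markers were at 0 in all 6 libraries. Adipocyte markers had a higher sum (58.8 to 61.6 against 81.6 to 84.7 CPM, 3 of 4 higher), and the sums overlapped for keratinocytes (4.11 to 5.06 against 4.66 to 5.04 CPM, 1 of 9 higher) and dermal papilla (30.7 to 34.0 against 32.2 to 33.4 CPM, 2 of 4 lower and 1 higher). The keratinocyte marker called higher, Krt5, had 2 counts in each normal glucose library and 12 to 23 in high glucose. Like Erg, it passed the filter only through the high glucose libraries. The part of these lists in the Wnt results was not tested, and in bulk samples fewer cells of a type and less RNA per cell cannot be told apart.

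The libraries held 120192466 to 146881356 counts, at which 3 counts, the floor that a count of 0 allows, corresponded to 0.0212 to 0.0258 CPM. The 10 genes with the most counts took 7.86% to 8.18% of the counts in normal glucose and 11.4% to 11.6% in high glucose.

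Of the 58 Wnt genes, 45 passed the filter on low counts. In high glucose 25 of them were higher and 7 lower at an adjusted P value under 0.05 (edgeR's quasi-likelihood test, adjusted by the Benjamini-Hochberg method over all 19015 genes tested), and the other 13 did not pass that threshold. Over all genes tested, 31.4% were called, 16.9% higher and 14.5% lower, against 71.1%, 55.6% and 15.6% of the Wnt genes tested. Because genes with more counts are called more often, the share was also taken over genes that averaged 1 CPM or more in either group: 30 of 37 such Wnt genes were called (81.1%, 24 higher and 6 lower), against 38.4% of all such genes, 21.6% higher and 16.8% lower. The CPM of the 2 groups did not overlap for 36 of the 45 Wnt genes tested, 29 above and 7 below normal glucose and all 32 called genes among them (the other 4 being Wnt7b, Fzd7, Fzd9 and Tcf7), against 46.4% of all tested genes, 25.1% above and 21.3% below. The median log2 fold change was 0.37 for the Wnt genes tested and 0.0062 for all genes tested. Changes were mostly below 2-fold, and 4 called Wnt genes (Wnt4, Sfrp1, Sfrp4 and Dkk1) passed a log2 fold change of 1 in either direction, which 4.93% of all tested genes did. Of these, Dkk1 had few counts and passed the filter only through the high glucose libraries, which favored its call as higher. Scaling matters for the smaller changes: scaled to library size alone, without TMM, the median of all tested genes fell to -0.11, 72.9% of all calls were lower in place of 46.2%, and among the Wnt genes 17 were called higher and 10 lower.

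**Figure D1:**
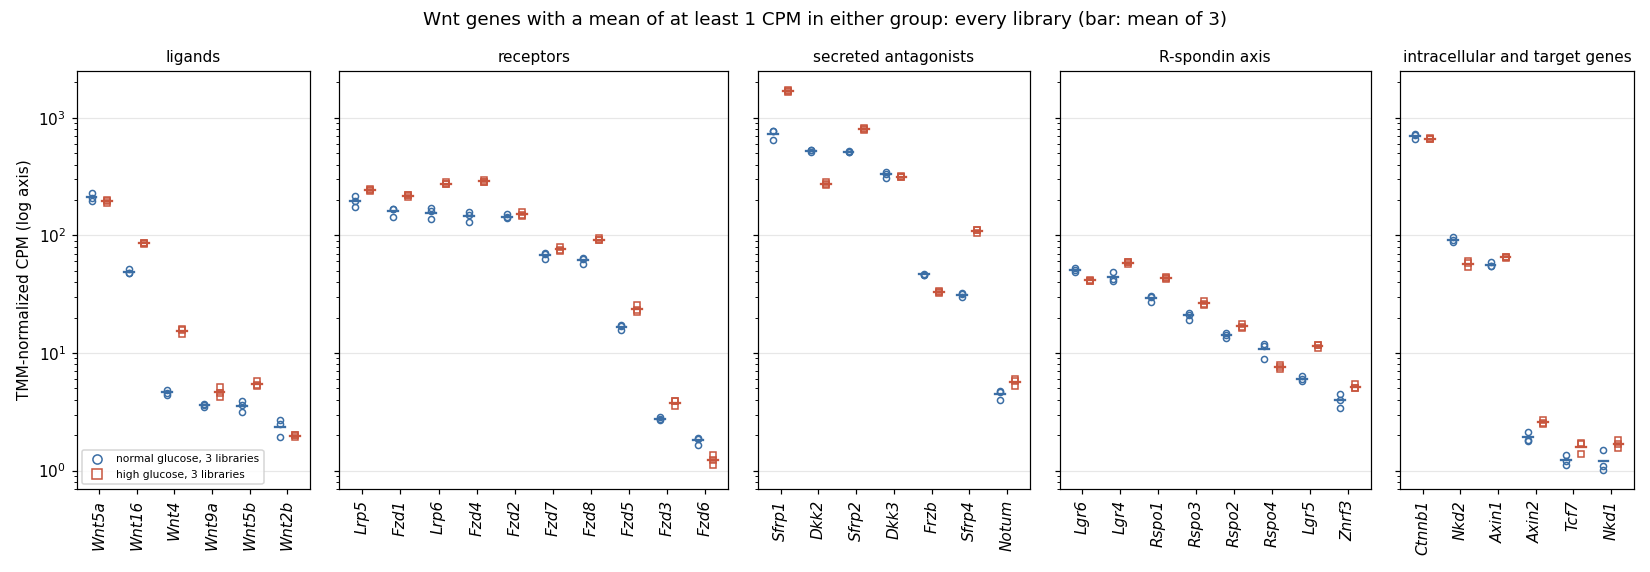
TMM-normalized CPM (log axis) of the 37 Wnt genes with a mean of at least 1 CPM in either group, by role, with 1 symbol for each of the 6 libraries and a bar for the mean of 3. Sfrp1 stands highest and separates widely between the groups, Dkk2 falls, and Wnt5a, Fzd2, Dkk3 and Ctnnb1 show normal and high glucose close together.

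**Figure D2:**
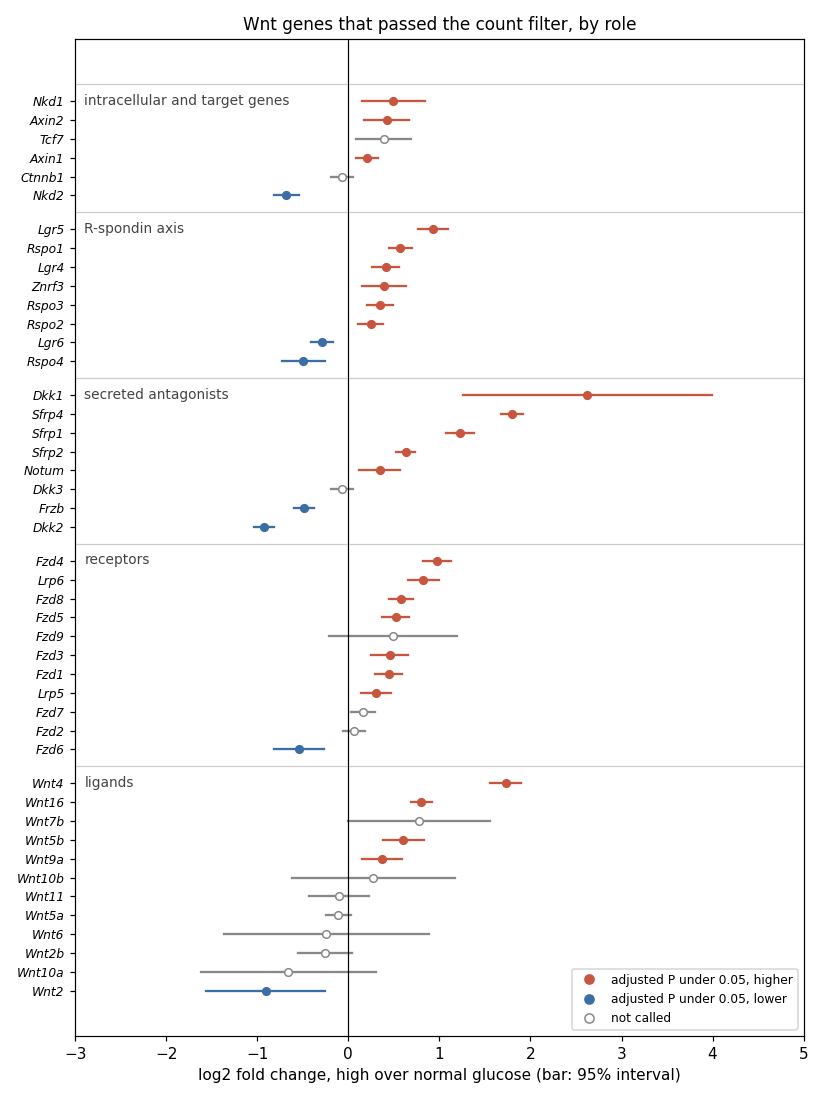
Log2 fold change of high over normal glucose for the 45 Wnt genes that passed the count filter, by role, with bars for the 95% interval and color for the call. Filled points right of 0 are the 25 genes called higher, filled points left of 0 the 7 called lower, and the widest bars belong to genes with few counts such as Dkk1.

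Promoters of 4 genes with large changes are shown so that their starts can be compared, since the genes differ in direction (Wnt4, Fzd4 and Dkk1 higher, Dkk2 lower) and Dkk1 is a classical β-catenin target. Each is the stretch of 250 bases before a RefSeq transcription start on GRCm38.p6, read 5′ to 3′ on the strand of the gene, with capitals for matches to 3 kinds of motif searched on both strands. The TCF/LEF-type motif was spelled CTTTGAA, with CTTTGAT also accepted. The TATA motif was spelled TATAAA. The GC box was spelled GGGCGG. Neighboring GC boxes run together in capitals where they share letters or adjoin.
Wnt4 (chr4:137277385-137277634, plus strand): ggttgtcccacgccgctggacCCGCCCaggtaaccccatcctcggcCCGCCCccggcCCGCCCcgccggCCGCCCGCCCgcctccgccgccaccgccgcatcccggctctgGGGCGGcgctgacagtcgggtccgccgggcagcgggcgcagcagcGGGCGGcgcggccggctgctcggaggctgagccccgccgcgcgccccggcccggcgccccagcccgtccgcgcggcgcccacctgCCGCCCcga
Fzd4 (chr7:89404116-89404365, plus strand): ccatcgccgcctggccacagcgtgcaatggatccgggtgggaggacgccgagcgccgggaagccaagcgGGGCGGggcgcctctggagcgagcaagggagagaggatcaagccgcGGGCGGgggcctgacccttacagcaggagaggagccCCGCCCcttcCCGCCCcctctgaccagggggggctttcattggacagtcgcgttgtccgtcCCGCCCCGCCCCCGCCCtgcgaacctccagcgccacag
Dkk1 (chr19:30549497-30549746, minus strand): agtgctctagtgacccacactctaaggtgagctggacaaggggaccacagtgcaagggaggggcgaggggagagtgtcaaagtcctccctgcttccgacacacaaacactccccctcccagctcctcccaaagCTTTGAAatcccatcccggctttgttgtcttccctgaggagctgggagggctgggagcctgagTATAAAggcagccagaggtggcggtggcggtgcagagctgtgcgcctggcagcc
Dkk2 (chr3:132085042-132085291, plus strand): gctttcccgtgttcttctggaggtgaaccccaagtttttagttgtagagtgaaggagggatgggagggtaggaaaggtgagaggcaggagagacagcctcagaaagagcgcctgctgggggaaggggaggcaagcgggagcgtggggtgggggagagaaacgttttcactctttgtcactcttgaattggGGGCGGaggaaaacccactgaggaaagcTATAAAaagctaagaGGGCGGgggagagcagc
The Wnt4 stretch had 85.2% G and C with 8 GC box matches, and the Fzd4 stretch 72.8% with 7, against a median of 52.4% over all windows in the table. The Dkk1 stretch (60.8% G and C) had the TCF/LEF-type motif 117 bases and the TATA motif 54 bases before the start. The Dkk2 stretch (55.6%) had the TATA motif 32 bases and GC boxes 60 and 17 bases before the start. A promoter window of 250 bases before to 50 after the start was found for 38 of the 58 Wnt genes, 47 windows in all. The TCF/LEF-type motif was in 3 of these windows (6.38%, those of Wnt11, Wnt5b and Dkk1) and in 8.65% of 32851 windows of all genes, the TATA motif in 17.0% and 13.6%, and the GC box in 70.2% and 35.7%. By direction, the GC box was in 7 of 15 windows of Wnt genes called higher and in 5 of 6 windows of those called lower. These are few windows, some of them of the same gene, and a link between GC boxes and the direction of change was not tested. A match gives letters only, and no binding was measured.

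Among the 19 ligands, 12 passed the filter, of which 4 rose (Wnt4, Wnt16, Wnt5b and Wnt9a), 1 fell (Wnt2) and 7 did not pass the test. Per transcript length (TPM, counts scaled by transcript length and to a common total), Wnt5a was the most abundant ligand in both groups, followed by Wnt16. Wnt5a (chr14:28504750-28527448, the span of the gene on GRCm38, as for the positions that follow), the typical noncanonical ligand, had 198, 229 and 207 CPM in normal glucose and 199.6, 198 and 189 CPM in high glucose. The groups overlapped, and the difference was not significant (log2 fold change of -0.11, SE 0.063, adjusted P = 0.208, 95% interval -0.25 to 0.03). Its level went from 98.0 ± 10.4 TPM to 90.5 ± 2.97 TPM (SD, n = 3). Wnt5a did pass, as lower, when normal glucose replicate 1 was left out (adjusted P = 0.0304) and with library size scaling (adjusted P = 0.0205). Wnt16 (chr6:22288227-22298522), a ligand studied mainly in bone and skin, had 47.6, 48.2 and 51.7 CPM in normal glucose and 83.9, 86.8 and 86.2 CPM in high glucose. All 3 high glucose cultures were far above the normal glucose cultures (log2 fold change of 0.80, SE 0.053, adjusted P = 2.1e-06), and the level went from 40.9 ± 2.20 TPM to 71.0 ± 0.496 TPM (SD, n = 3). Wnt4 (chr4:137277489-137299726), a ligand needed for kidney and female reproductive tract development, had 4.89, 4.42 and 4.56 CPM in normal glucose and 14.5, 15.6 and 15.9 CPM in high glucose. This was the largest rise among the ligands, 3.31-fold, with a wide gap between the groups (log2 fold change of 1.73, SE 0.076, adjusted P = 1.5e-07), although the level in high glucose, 13.2 TPM, stayed under that of Wnt16 and Wnt5a.

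Wnt5b (chr6:119432531-119544347), a close relative of Wnt5a, had 3.63, 3.18 and 3.92 CPM in normal glucose and 5.73, 5.22 and 5.36 CPM in high glucose. The groups did not overlap (log2 fold change of 0.61, SE 0.10, adjusted P = 0.0011). Wnt9a (chr11:59306928-59333552), a ligand with roles in joints and blood stem cells, had 3.47, 3.67 and 3.64 CPM in normal glucose and 5.15, 4.54 and 4.26 CPM in high glucose. Its smaller rise (log2 fold change of 0.37, SE 0.097, adjusted P = 0.0154) did not pass the threshold when normal glucose replicate 3 (adjusted P = 0.0533) or high glucose replicate 1 (adjusted P = 0.104) was left out, or with library size scaling (adjusted P = 0.0674). Wnt2, a ligand known from lung and vessel development, was scarce at 0.351, 0.261 and 0.406 CPM in normal glucose and 0.155, 0.249 and 0.141 CPM in high glucose, and its fall (log2 fold change of -0.91, SE 0.29, adjusted P = 0.0388) was lost without normal glucose replicate 1 (adjusted P = 0.0627), normal glucose replicate 3 (adjusted P = 0.124), high glucose replicate 1 (adjusted P = 0.121) or high glucose replicate 3 (adjusted P = 0.13). It was also lost with DESeq2 (adjusted P = 0.0967), with no filter on low counts (adjusted P = 0.0614) and with the replicate number as a block (adjusted P = 0.0812). The tested ligands without a call were, beside Wnt5a, Wnt2b (-0.25, 95% interval -0.55 to 0.04), Wnt7b (0.77, -0.01 to 1.55), Wnt11 (-0.10, -0.43 to 0.23), Wnt6 (-0.24, -1.37 to 0.88), Wnt10a (-0.66, -1.62 to 0.30) and Wnt10b (0.28, -0.62 to 1.17), given as log2 fold changes. Wnt2b was called lower when normal glucose replicate 1 was left out (adjusted P = 0.015). Wnt1, Wnt3, Wnt3a, Wnt7a, Wnt8a, Wnt8b and Wnt9b did not pass the filter. Among them Wnt8a had 3, 4 and 8 counts in normal glucose and 0 in each high glucose library, Wnt8b was at 0 in all 6 libraries, and the other 5 had counts in 1 library each, at most 6.

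Of the 12 receptor genes, 7 rose, 1 fell, 3 were tested without passing and Fzd10, with at most 12 counts in a library, was not tested. The largest rise was that of Fzd4 (chr7:89404355-89413134), the receptor that responds to Norrin and some Wnt ligands in retinal vessels. It had 131, 158 and 150.0 CPM in normal glucose and 284, 294 and 287 CPM in high glucose, with no overlap between groups (log2 fold change of 0.98, SE 0.070, adjusted P = 3.8e-06). The level of Fzd4 went from 79.1 ± 9.79 TPM to 155 ± 1.02 TPM (SD, n = 3). Lrp6 (chr6:134446476-134566965), the coreceptor for canonical signaling, had 137, 171 and 160.3 CPM in normal glucose and 271, 286 and 271 CPM in high glucose. It rose 1.77-fold (log2 fold change of 0.82, SE 0.077, adjusted P = 2.4e-05), whereas its relative Lrp5 (chr19:3584828-3686564) had 175, 198 and 218 CPM in normal glucose and 249, 242 and 238 CPM in high glucose and rose 1.23-fold (log2 fold change of 0.30, SE 0.074, adjusted P = 0.0105). The Lrp5 call was lost without high glucose replicate 1 (adjusted P = 0.0621) and with library size scaling (adjusted P = 0.0662). Normal glucose replicate 1 was the lowest library for Fzd4, Lrp6 and Lrp5 alike.

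The remaining Frizzled genes encode membrane receptors that share the ligand-binding domain. Fzd8 (chr18:9212163-9218136) had 56.7, 63.2 and 64.2 CPM in normal glucose and 94.4, 90.6 and 90.7 CPM in high glucose and rose with a wide gap (log2 fold change of 0.58, SE 0.059, adjusted P = 4.3e-05). Fzd5 (chr1:64730558-64737751), a receptor needed for yolk sac vessels, had 15.6, 17.2 and 16.9 CPM in normal glucose and 25.6, 23.3 and 22.5 CPM in high glucose and also rose (log2 fold change of 0.52, SE 0.067, adjusted P = 2.0e-04). Fzd1 (chr5:4753839-4758035) had 145, 167 and 169 CPM in normal glucose and 222, 221 and 210.4 CPM in high glucose, again without overlap (log2 fold change of 0.44, SE 0.066, adjusted P = 5.7e-04). Fzd3 (chr14:65192449-65262463), a receptor of the planar polarity branch, was low at 2.73, 2.69 and 2.87 CPM in normal glucose and 3.57, 3.89 and 3.91 CPM in high glucose and rose (log2 fold change of 0.45, SE 0.092, adjusted P = 0.0039). Fzd6 (chr15:39006034-39038188), another planar polarity receptor that orients hair follicles in skin, was the single receptor that fell, with 1.90, 1.66 and 1.86 CPM in normal glucose and 1.37, 1.23 and 1.12 CPM in high glucose (fitted log2 fold change of -0.54, SE 0.13, adjusted P = 0.0081). Fzd2 (chr11:102604396-102608058), the Frizzled gene with the highest TPM in normal glucose, had 140.4, 143 and 151 CPM in normal glucose and 158, 146 and 150.1 CPM in high glucose. The Fzd2 groups overlapped (log2 fold change of 0.07, SE 0.054, adjusted P = 0.392, 95% interval -0.05 to 0.19), and its sign changed with library size scaling. Fzd7 (chr1:59482424-59486955) had 63.4, 70.4 and 69.9 CPM in normal glucose and 79.3, 75.7 and 73.2 CPM in high glucose, which did not overlap but missed the threshold (log2 fold change 0.16, 95% interval 0.03 to 0.30, adjusted P = 0.0597). Fzd9 was under 1 CPM and not called (log2 fold change 0.49, 95% interval -0.21 to 1.19).

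The secreted antagonists included the most abundant of the Wnt genes, and they moved in both directions: of 11 genes, 5 rose, 2 fell, 1 was tested without passing and 3 were not tested. Sfrp1 (chr8:23411502-23449632), which binds Wnt ligands in the extracellular space, had 649.5, 766 and 768 CPM in normal glucose and 1666, 1729 and 1702 CPM in high glucose. The lowest high glucose culture was far above the highest normal glucose culture (log2 fold change of 1.22, SE 0.069, adjusted P = 7.6e-07), and the level went from 604 ± 70.4 TPM to 1407 ± 8.42 TPM (SD, n = 3), the highest TPM of any Wnt gene in high glucose. Sfrp2 (chr3:83766321-83774316), a related ligand-binding protein abundant in dermal fibroblasts, had 515, 509 and 525 CPM in normal glucose and 799, 813 and 784 CPM in high glucose. It was the Wnt gene with the highest TPM in normal glucose and went from 869 ± 21.8 TPM to 1342 ± 22.5 TPM (SD, n = 3) (log2 fold change of 0.63, SE 0.048, adjusted P = 5.6e-06). Sfrp4 (chr13:19623104-19632994), the SFRP gene linked to bone cortex and to fibrosis, had 32.5, 29.8 and 31.6 CPM in normal glucose and 105, 110.2 and 110.4 CPM in high glucose. It had the largest fold change of the Wnt genes above 1 CPM, 3.47-fold (log2 fold change of 1.80, SE 0.055, adjusted P = 3.0e-08). Frzb (chr2:80411970-80447625), the SFRP family member best known from cartilage, went the other way, with 46.5, 47.2 and 45.8 CPM in normal glucose and 33.1, 33.8 and 32.5 CPM in high glucose and no overlap between the groups (log2 fold change of -0.49, SE 0.049, adjusted P = 3.6e-05).

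The Dickkopf genes split as well. Dkk2 (chr3:132085292-132180304), an LRP5/6 ligand that can act as antagonist or agonist, had 527, 516 and 528 CPM in normal glucose and 274, 285 and 269 CPM in high glucose. The groups were far apart, and the fall was the largest among the Wnt genes tested (log2 fold change -0.92, SE 0.049, adjusted P = 4.9e-07), with the level going from 512 ± 9.45 TPM to 269.6 ± 6.59 TPM (SD, n = 3). Dkk1 (chr19:30545863-30549665), the classical LRP5/6 antagonist and a β-catenin target, was scarce, with 6, 4 and 0 counts in normal glucose and 16, 21 and 26 counts in high glucose. The groups did not overlap, and the fitted log2 fold change was 2.63 with a 95% interval of 1.26 to 3.99 (adjusted P = 0.0086), but the level stayed under 1 CPM. Dkk1 passed the filter on low counts only through the high glucose libraries. The filter therefore favored a higher call and groups without overlap, and neither is independent evidence of a rise. Dkk3 (chr7:112116017-112159057), a divergent family member that does not bind LRP5/6 like the others, had 310.3, 334 and 347 CPM in normal glucose and 312, 321 and 311 CPM in high glucose, overlapping groups that did not pass (log2 fold change -0.07, 95% interval -0.19 to 0.05). Dkk3 was called lower without normal glucose replicate 1 (adjusted P = 0.0449) and with library size scaling (adjusted P = 0.0217). Notum (chr11:120653788-120661175), an enzyme that removes the lipid from Wnt proteins, had 4.70, 3.95 and 4.79 CPM in normal glucose and 5.82, 5.99 and 5.22 CPM in high glucose, a small rise (log2 fold change of 0.34, SE 0.10, adjusted P = 0.0271). The Notum call was lost without normal glucose replicate 2 (adjusted P = 0.0842), high glucose replicate 1 (adjusted P = 0.114) or high glucose replicate 2 (adjusted P = 0.112), with library size scaling (adjusted P = 0.101), with no filter on low counts (adjusted P = 0.0661) and with the replicate block (adjusted P = 0.0532). Wif1, Sfrp5 and Dkk4 had at most 8 counts in a library, and Dkk4 was at 0 in all 6.

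In the R-spondin axis all 8 tested genes were called, 6 higher and 2 lower, and Rnf43, with at most 12 counts in a library, was not tested. Rspo1 (chr4:124986430-125009099), an R-spondin needed for ovarian development, was the most abundant of the 4 ligands per transcript length and had 27.4, 29.8 and 30.6 CPM in normal glucose and 44.2, 42.9 and 43.2 CPM in high glucose. It rose with no overlap between groups (log2 fold change of 0.57, SE 0.057, adjusted P = 3.6e-05), with the level going from 54.8 ± 4.31 TPM to 81.1 ± 2.32 TPM (SD, n = 3). Rspo3 (chr10:29452416-29535867), the family member known for its role in vessel remodeling, had 22.1, 21.2 and 19.2 CPM in normal glucose and 25.8, 27.8 and 26.1 CPM in high glucose and rose (log2 fold change of 0.35, SE 0.064, adjusted P = 0.0021). Rspo2 (chr15:43020794-43170826), which acts in limb and lung development, had 13.5, 14.8 and 14.3 CPM in normal glucose and 16.6, 17.5 and 16.4 CPM in high glucose (fitted log2 fold change of 0.25, SE 0.062, adjusted P = 0.0122), a call lost without high glucose replicate 1 (adjusted P = 0.0552) or replicate 2 (adjusted P = 0.0682) and with library size scaling (adjusted P = 0.122). Rspo4 (chr2:151842927-151874668), the nail R-spondin, fell instead, with 8.91, 11.5 and 11.9 CPM in normal glucose and 7.92, 7.33 and 7.67 CPM in high glucose (fitted log2 fold change of -0.50, SE 0.11, adjusted P = 0.0055).

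The R-spondin receptors also differed in direction. Lgr5 (chr10:115450311-115587780), a stem cell marker of gut and hair follicle, had 5.96, 6.34 and 5.78 CPM in normal glucose and 11.7, 11.1 and 11.6 CPM in high glucose and rose 1.90-fold (log2 fold change of 0.93, SE 0.073, adjusted P = 7.2e-06). Lgr4 (chr2:109917647-110014257), the broadly expressed receptor of the family, had 41.1, 48.7 and 42.3 CPM in normal glucose and 59.4, 59.1 and 57.0 CPM in high glucose and rose less (log2 fold change of 0.41, SE 0.067, adjusted P = 0.0011). Lgr6 (chr1:134983301-135105276), known from skin stem cells, had 48.4, 52.7 and 50.5 CPM in normal glucose and 41.1, 40.9 and 42.0 CPM in high glucose and fell (log2 fold change of -0.29, SE 0.052, adjusted P = 0.002), so that each of the 3 receptors separated the groups but not in 1 direction. Znrf3 (chr11:5276324-5444847), a ubiquitin ligase that removes Frizzled receptors from the surface and a β-catenin target, had 3.96, 4.47 and 3.43 CPM in normal glucose and 5.49, 5.01 and 5.05 CPM in high glucose (fitted log2 fold change of 0.39, SE 0.11, adjusted P = 0.0198). The Znrf3 rise was lost without normal glucose replicate 3 (adjusted P = 0.0888) or without high glucose replicates 1, 2 or 3 (adjusted P = 0.103, 0.0521 and 0.0586), with library size scaling (adjusted P = 0.0831) and with no filter on low counts (adjusted P = 0.0586).

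Of the 7 intracellular and target genes, 3 rose by small amounts, 1 fell, 2 were tested without passing and Lef1, a nuclear partner of β-catenin with at most 7 counts in a library, was not tested. Ctnnb1 (chr9:120929216-120960507), which encodes β-catenin and had the highest TPM of the class, had 658, 723 and 715 CPM in normal glucose and 675, 662 and 660.1 CPM in high glucose. The groups overlapped and the difference was not significant (log2 fold change of -0.07, SE 0.054, adjusted P = 0.36, 95% interval -0.19 to 0.05), although it was called lower without normal glucose replicate 1 (adjusted P = 0.038) and with library size scaling (adjusted P = 0.0213). Nkd2 (chr13:73818534-73847631), which binds Dishevelled and dampens signaling, had 87.4, 92.2 and 97.0 CPM in normal glucose and 58.6, 54.0 and 60.0 CPM in high glucose. Its fall was the clearest change of the class, with a wide gap between the groups (log2 fold change of -0.68, SE 0.061, adjusted P = 1.8e-05). Nkd1 (chr8:88521354-88594884), its relative and a β-catenin target, had 1.10, 1.01 and 1.48 CPM in normal glucose and 1.68, 1.82 and 1.57 CPM in high glucose and was called higher (log2 fold change of 0.50, SE 0.16, adjusted P = 0.036). That call was lost without any one of 5 libraries, with an adjusted P of 0.0839 and 0.113 without normal glucose replicates 1 and 2 and of 0.0975, 0.122 and 0.0683 without high glucose replicates 1, 2 and 3, and it was also lost with upper quartile scaling (adjusted P = 0.0503), library size scaling (adjusted P = 0.081), no filter on low counts (adjusted P = 0.0865) and the replicate block (adjusted P = 0.0596).

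Axin2 (chr11:108920349-108950783), a β-catenin target that acts in the destruction complex and serves as a common readout of canonical signaling, was low at 1.77, 2.15 and 1.83 CPM in normal glucose and 2.50, 2.55 and 2.67 CPM in high glucose. The groups did not overlap (log2 fold change of 0.42, SE 0.11, adjusted P = 0.0152), and the call was lost without normal glucose replicate 3 (adjusted P = 0.0666), high glucose replicate 1 (adjusted P = 0.0502) or high glucose replicate 3 (adjusted P = 0.0764) and with library size scaling (adjusted P = 0.0569). Axin1 (chr17:26138688-26195811), the scaffold of the same complex, had 54.8, 55.1 and 59.8 CPM in normal glucose and 65.0, 65.9 and 64.8 CPM in high glucose (fitted log2 fold change of 0.21, SE 0.053, adjusted P = 0.0141). The Axin1 call was lost without high glucose replicates 1, 2 or 3 (adjusted P = 0.0745, 0.0677 and 0.0779) and with library size scaling (adjusted P = 0.186). Tcf7, a TCF/LEF transcription factor and target, had 1.35, 1.21 and 1.12 CPM in normal glucose and 1.38, 1.73 and 1.70 CPM in high glucose, which missed the threshold (log2 fold change 0.39, 95% interval 0.08 to 0.69, adjusted P = 0.054) and passed it without normal glucose replicate 1 (adjusted P = 0.0379) or high glucose replicate 1 (adjusted P = 0.0438).

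Levels per transcript length were also summed within families, and the share of single genes in their family was taken. The ligands summed to 143.5, 167 and 156 TPM in normal glucose and 193, 190.0 and 188 TPM in high glucose. Wnt5a made up 62.9% ± 2.20 of that sum in normal glucose and 47.5% ± 0.864 in the high glucose cultures (SD, n = 3), Wnt16 26.3% ± 1.47 and 37.3% ± 0.808, and Wnt4 2.58% ± 0.262 and 6.94% ± 0.382. The SFRP family, Frzb included, summed to 1446, 1618 and 1594 TPM in normal glucose and 2887, 2896 and 2857 TPM in high glucose. Within it the share of Sfrp1 went from 38.8% ± 2.27 to 48.8% ± 0.445, that of Sfrp2 from 56.1% ± 2.03 to 46.6% ± 0.505, and that of Frzb from 3.36% ± 0.146 to 1.29% ± 0.0133. The ratio of SFRP to ligand TPM was 9.99 ± 0.293 in normal glucose and 15.1 ± 0.174 in high glucose.

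The Frizzled genes summed to 418, 491 and 481 TPM in normal glucose and 645, 615 and 611 TPM in high glucose. Fzd4 went from 17.0% ± 0.791 to 24.9% ± 0.764 of the sum (SD, n = 3), Fzd2 from 31.0% ± 1.32 to 24.0% ± 0.727, and Fzd1 stood at 29.9% ± 0.690 and 30.1% ± 0.464. The Dickkopf family was the exception in amount, with 827, 891 and 888 TPM in normal glucose and 613, 617 and 598 TPM in high glucose, and Dkk2 went from 59.0% ± 1.42 to 44.3% ± 0.345 of it, the rest being nearly all Dkk3. The R-spondins summed to 97.6, 112 and 108 TPM against 139, 135 and 134 TPM, and the 3 LGR genes to 51.6, 61.9 and 54.6 TPM against 63.2, 61.1 and 61.3 TPM, overlapping. Of the normal glucose cultures, replicate 1 had the lowest sum in each of the families in this paragraph. These sums and shares are given as descriptions, and with 3 cultures against 3 an exact permutation test of such a value cannot give a P value under 0.1.

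**Figure D3:**
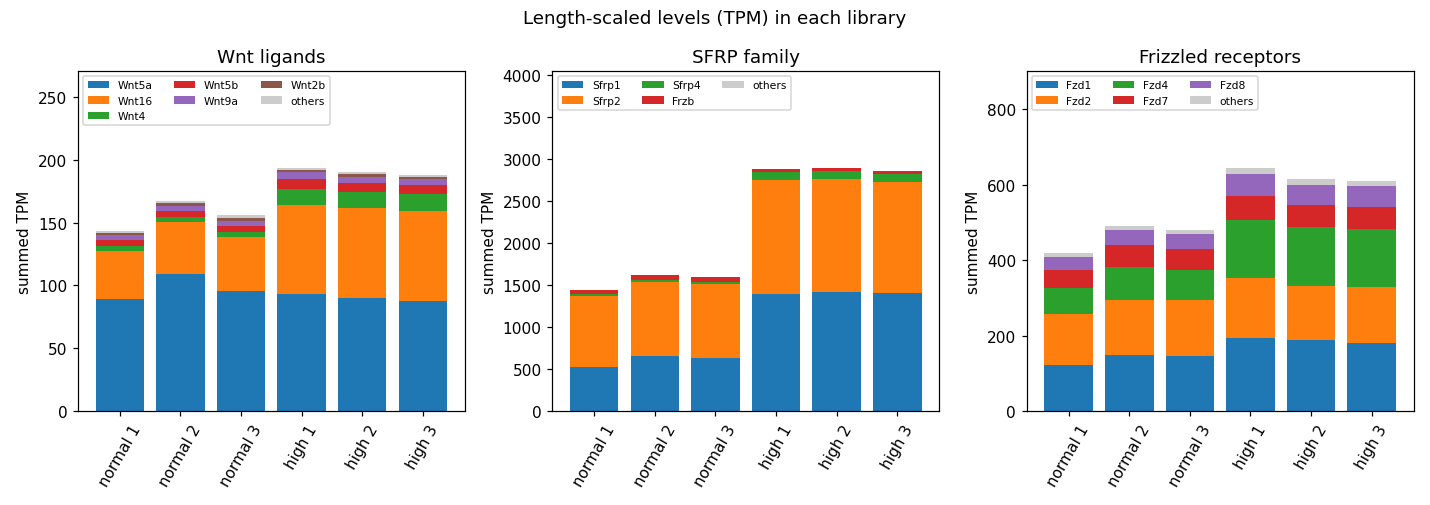
Summed TPM of the Wnt ligands, the SFRP family (with Frzb) and the Frizzled receptors in each of the 6 libraries, stacked by gene. Sfrp1 and Sfrp2 make up nearly all of the SFRP bars, the Wnt5a segment stays near the same height while Wnt16 and Wnt4 grow, and Fzd4 grows most among the Frizzled genes.

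A further 76 genes of the pathway outside these families were counted by role. Of the 71 tested, 27 rose (38.0%), 7 fell (9.86%) and 37 did not pass. In all 47.9% were called, against 31.4% of all genes tested, 16.9% higher and 14.5% lower. The list was chosen with earlier results of these data known, so this comparison is a description and not independent support. Most of the 71 averaged 1 CPM or more in either group, and of all such genes 38.4% were called, 21.6% higher and 16.8% lower. The median log2 fold change of the 71 was 0.13. By role, 1 of 2 ligand secretion genes, 5 of 10 alternative receptors and surface binders, 3 of 8 other antagonists (4 tested), 5 of 19 cytoplasmic genes, 7 of 14 nuclear genes, 3 of 10 planar polarity genes and 2 of 9 further targets were higher. Lower calls were 2 among the alternative receptors, 2 among the cytoplasmic genes and 3 among the further targets. Of the tested genes, 26.3% of the cytoplasmic genes, 30.0% of the planar polarity genes and 25.0% of the further targets were higher. The share was 16.9% of all genes tested and 21.6% of those at 1 CPM or more. Each of these classes held few genes, which limits the comparison. Lower shares were 20.0% for the alternative receptors, 10.5% for the cytoplasmic genes and 37.5% for the further targets, each of few genes. The genes for Norrin (Ndp) and for endothelial coreceptors of Norrin or Wnt7 (Tspan12, Adgra2 and Reck) gave 1 call, Adgra2, named here after its values were seen, with 197, 244 and 252 CPM in normal glucose and 362, 338 and 346 CPM in high glucose (fitted log2 fold change 0.60 with adjusted P = 4.5e-04).

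The 8 called genes of this wider list with the largest changes above 1 CPM are given with their values. Porcn, the acyltransferase that attaches the lipid to Wnt proteins, had 11.3, 11.3 and 11.7 CPM in normal glucose and 26.2, 24.6 and 26.9 CPM in high glucose (fitted log2 fold change 1.18 with adjusted P = 3.0e-07). Ror1, a Wnt5a receptor, had 2.91, 3.69 and 3.48 CPM in normal glucose and 10.1, 9.41 and 10.6 CPM in high glucose, the largest rise in the list (fitted log2 fold change 1.58 with adjusted P = 2.0e-06). Lrp4, a surface protein that binds Wnt modulators such as Dickkopf and sclerostin, had 16.5, 19.9 and 20.2 CPM in normal glucose and 46.4, 44.4 and 45.7 CPM in high glucose (fitted log2 fold change 1.27 with adjusted P = 1.1e-06). All 3 separated the groups widely. Gpc6, a glypican, had 16.2, 22.9 and 28.3 CPM in normal glucose and 36.6, 45.3 and 46.3 CPM in high glucose, with more spread between cultures (fitted log2 fold change 0.93 with adjusted P = 0.0019). Cthrc1, a secreted protein that promotes the planar polarity branch, fell, with 48.0, 44.3 and 45.1 CPM in normal glucose and 16.7, 16.5 and 17.5 CPM in high glucose (fitted log2 fold change -1.44 with adjusted P = 6.7e-08). Igfbp4, an IGF-binding protein that also inhibits Wnt receptors, had 213, 184 and 202 CPM in normal glucose and 407, 414 and 398 CPM in high glucose (fitted log2 fold change 1.02 with adjusted P = 1.0e-06). The targets moved in both directions: Ccnd1, the cell cycle gene for cyclin D1, had 175, 167 and 162 CPM in normal glucose and 64.2, 64.4 and 61.8 CPM in high glucose (fitted log2 fold change -1.40 with adjusted P = 5.6e-08), and Ccn5, a matricellular gene, had 42.6, 40.0 and 43.5 CPM in normal glucose and 94.4, 97.4 and 94.8 CPM in high glucose (fitted log2 fold change 1.18 with adjusted P = 1.5e-07). Exons of Ccnd1 share 1100 bases with LTO1 on the opposite strand, which had 17867 counts over all libraries against 91149 for Ccnd1.

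**Figure D4:**
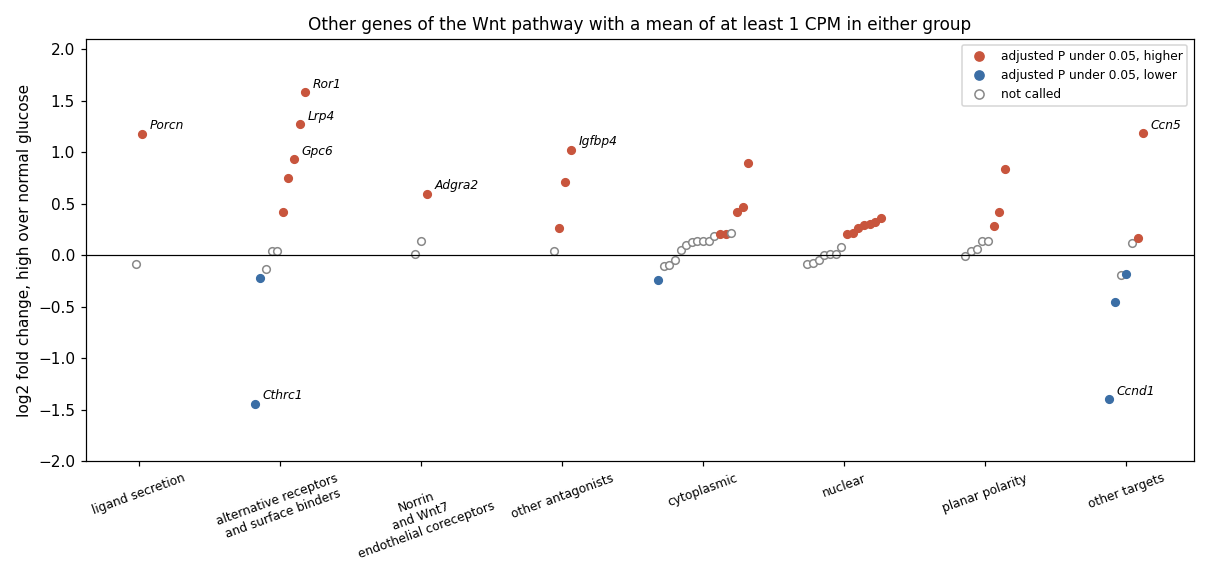
Log2 fold change of high over normal glucose for the other Wnt pathway genes with a mean of at least 1 CPM in either group, 1 point per gene, by role, with color for the call. Ror1, Lrp4, Porcn and Ccn5 stand at the top, Cthrc1 and Ccnd1 at the bottom, and the cytoplasmic and nuclear genes lie mostly near 0.

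Exons of 11 Wnt genes overlap another annotated gene, and the sources used here do not state that the counting used strand, so reads of an opposite-strand partner cannot be told apart from theirs. For Wnt5a the partner Gm2670 had 2486 counts over all libraries against 160526, for Ctnnb1 the partner Ulk4 had 1246 against 538171, for Sfrp2 the partner Gm26771 had 1049 against 517278, for Notum the partner Notumos had 262 against 3988, and for Axin2 the partner Gm11670 had 82 against 1772. Wnt genes also lie next to each other in the genome. Wnt9a and Wnt3a on chromosome 11 are 16175 bases apart on opposite strands, and Wnt9a was higher while Wnt3a had 2 counts in 1 library. Wnt6 and Wnt10a on chromosome 1 are 6193 bases apart, and neither was called.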

How the data were processed

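Bulk RNA-sequencing libraries of 3 cultures in normal glucose and 3 in high glucose were grouped by their labels. The authors trimmed reads (Trimmomatic), aligned them (HISAT2, GRCm38) and summarized them per gene (StringTie), and deposited whole-number counts without normalization. Counts were filtered with filterByExpr (minimum count 10, minimum total 15) and TMM-normalized, and high was compared with normal glucose by the quasi-likelihood test of edgeR 4.0.16 (R 4.3.3) with P values adjusted by the Benjamini-Hochberg method and called under 0.05. Standard errors came from the test statistic. CPM are TMM-normalized. TPM were computed from the counts and merged exon lengths of GENCODE M21, which also gave GRCm38 positions, and promoter sequences are RefSeq's (GRCm38.p6). The fit was tested on simulated counts. Replicate libraries of a group differed beyond sampling noise (chi-square per degree of freedom at least 9.76), and the biological coefficient of variation was 8.44%. The 95% intervals came from the fit and include the spread between libraries of a group, whereas the floors cover counting error only.

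Members, marker lists (endothelial, fibroblast, mural, keratinocyte, immune, melanocyte and Schwann, adipocyte, dermal papilla) and the wider pathway list were chosen with earlier results of these data known. Full values were given for called members with a mean of at least 1 CPM in either group and for the member of each role with the highest TPM, and for the 8 called genes of the wider list with the largest change above 1 CPM. Members that lost or gained a call in an alternative, those with few counts, and Adgra2 were added after their values were seen. Alternatives were other scalings, filters, tests (DESeq2 1.42.0) and thresholds, halved counts, summed symbols, the replicate block and each library left out.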

Additional observations from a re-analysis of the deposited data

How the results depend on the processing

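Over the alternatives that gave a value (16 for each called Wnt gene, but 15 for Wnt2 and 14 for Dkk1), 23 of the 32 called Wnt genes kept their call, 9 lost it in at least 1 and none reversed, and 5 that were not called passed in at least 1. Dkk1 is among those that kept it. The filter of at least 1 CPM in 3 libraries and the halved counts removed Dkk1, however, and so did not test its call. The 9 were Wnt2, Wnt9a, Lrp5, Notum, Znrf3, Rspo2, Axin2, Axin1 and Nkd1, and all but Wnt2 lost the call with library size scaling. The Wnt genes called lower numbered 6 to 10 and those called higher 17 to 25. With 1 library left out they numbered 6 to 10 and 18 to 25, and the wider pathway list had 6 to 9 lower and 18 to 27 higher. Library size scaling gave 11 lower and 17 higher in the wider list, and turned Fzd2 to -0.049 on the log2 scale. Without normal glucose replicate 3, Wnt6 turned to 0.081 and Wnt10b to -0.071, both uncalled and at few counts (range with 1 library left out -0.67 to 0.081 and -0.071 to 0.56). The cause was not tested. Same-numbered replicates deviated together at correlations of -0.025, 0.0038 and 0.013, so the numbers were not taken to pair the cultures, and with the replicate number as a block 6 Wnt genes were lower and 23 higher, Wnt2, Notum and Nkd1 losing their call. The 13 genes that did not pass the filter had at most 12 counts in a library, which limits what can be said of them.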
